A study of Daphnia magna with 15 samples.

Results

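The genes described here are the 70 genes of *Daphnia magna*, of 26646 in the files, whose product name holds splicing factor, small nuclear ribonucleoprotein, spliceosom, pre-mRNA or heterogeneous nuclear ribonucleoprotein. The rule reads names alone and no measured value. They were followed in 15 RNA-seq libraries from whole mothers of clone P132.85, raised at 15 °C until they carried their first clutch of parthenogenetic eggs, with 3 replicate pools on each of 5 diets. The diets were CRY (the flagellate *Cryptomonas*, a natural source of the polyunsaturated fatty acid EPA), CY+EPA (a cyanobacterium with liposomes that hold EPA), CY (the cyanobacterium without EPA), GA+EPA (the green alga *Acutodesmus obliquus* with EPA liposomes) and GA (the green alga without EPA). By the methods of the study both cyanobacterial diets also received alpha linolenic acid and cholesterol, so a comparison of CY with GA or CRY is not one of the basal food alone. The methods say that the green alga treatment that was sequenced had control liposomes, whereas the labels call it GA. The labels give pools of 3 animals in one place and of 5 in another, and the methods give 5. Pools for sequencing were chosen by the authors with somatic growth rates known. All animals belong to 1 clone, and by the methods neonates were spread over vessels, with several replicates per condition. The labels do not tie the 3 pools of a diet to vessels, so p-values measure the spread between these pools. The warmer treatments of the study are not analysed here.

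Splicing removes introns from pre-mRNA. It is carried out by the spliceosome, which assembles anew on each intron from small nuclear ribonucleoproteins (snRNPs) and many further proteins. The roles given below are known from yeast and human. Sm proteins form a ring around the snRNAs U1, U2, U4 and U5, U2 with its SF3A and SF3B proteins marks the branch site, and the U4/U6.U5 tri-snRNP brings in the catalytic RNA. RNA helicases then drive each rearrangement, while SR proteins and heterogeneous nuclear ribonucleoproteins (hnRNPs) influence which splice sites are used.

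Depth ran from 18062681 to 22287959 expected counts per library (median 19749270). Values below are CPM (counts scaled to the library size) after the libraries were scaled by the trimmed mean of M-values (TMM) of edgeR. The animals differed between diets in their content of other transcripts. The 18 genes named vitellogenin, yolk precursors that mark ovary and fat cells, summed to between 79010 and 110459 CPM on CRY, 76597 and 96683 on CY+EPA, 68212 and 148383 on CY, 24228 and 46450 on GA+EPA, and 9116 and 14635 on GA. With them moved the TMM factors, which were 0.960 to 0.967 on CRY, 0.939 to 0.988 on CY+EPA, 0.907 to 0.969 on CY, 1.04 to 1.09 on GA+EPA and 1.07 to 1.09 on GA. The 8 globin genes summed to between 1746 and 2378 CPM on CRY, 3056 and 3440 on CY+EPA, 1961 and 2881 on CY, 1021 and 1343 on GA+EPA, and 477 and 916 on GA, and the 32 opsin genes of the eye to between 857 and 914 CPM on CRY, 1273 and 1544 on CY+EPA, 842 and 1316 on CY, 1621 and 1794 on GA+EPA, and 1922 and 2129 on GA. The 5 markers of dividing cells and embryos summed to between 525 and 571 CPM on CRY, 575 and 662 on CY+EPA, 549 and 659.6 on CY, 458 and 567 on GA+EPA, and 463 and 481 on GA, so that by this sum, as by that of the splicing genes, every GA library was below every library of CRY, CY+EPA and CY. None of the markers in these lists was at 0 in every library. The wider list of 135 genes named for DNA replication and cell division did not repeat that order. On CRY its sum was 4408 to 4733 CPM and on CY 4717 to 5724, both overlapping GA at 4673 to 4756. On CY+EPA it was 4979 to 5729 CPM and on GA+EPA 4970 to 6095. The part of globin, eye and dividing cells in the results was not tested. The part of yolk transcripts in the differences below was examined only through the scaling of the libraries, as given further on. In whole animals, fewer cells of a type and less RNA per cell cannot be told apart. Replicate 1 of GA+EPA stood apart from its group. On the first principal component of all genes tested it lay at -15.6, beside the libraries without green alga (-40.3 to -7.56), whereas the other GA+EPA libraries lay at 20.1 and 32.2 and those of GA at 38.5 to 40.4. The main results that rest on GA+EPA are also given without it, an alternative whose counts were added after the data were seen.

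Of the 70 genes, 65 had enough counts to be tested. The 5 left out were 3 genes named as SF3B subunit with no number (KZR99718.1, KZS02301.1 and KZS21989.1), a second entry for the PRP16 helicase of 491 bases (KZS00733.1) that had no count in any library, and the U11/U12 25 kDa protein (KZS04679.1). A count of 0 in these libraries allows a level of up to 0.135 to 0.166 CPM. Per length, the highest level over all 15 libraries was that of serine/arginine-rich splicing factor 4 (SRSF4), with a mean of 323 FPKM (fragments scaled to transcript length and library size). It was followed by Sm D2 with 211 FPKM, the snRNP-associated protein KZS08002.1 with 161 FPKM and Sm G with 159 FPKM. The rank of Sm D2 rests on its short entry of 287 bases. Its mean over all 15 libraries was 23.6 CPM, against 65.9 CPM for Sm F. The 6 genes listed by name as Sm core, without KZS08002.1, lay between 87.4 and 211 FPKM, and the 7 tested SF3 subunits between 33.2 and 75.4 FPKM. The helicases had 51.1 and 25.4 FPKM for the DHX15 entries, 32.5 and 8.81 FPKM for the entries of the U5 200 kDa helicase, and 7.79 FPKM for PRP16. The lowest tested genes were hnRNP entries, KZS08183.1 (hnRNP K), KZS09141.1 (hnRNP Q) and KZS08203.1, at 0.633, 0.649 and 0.753 FPKM.

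**Figure D1:**
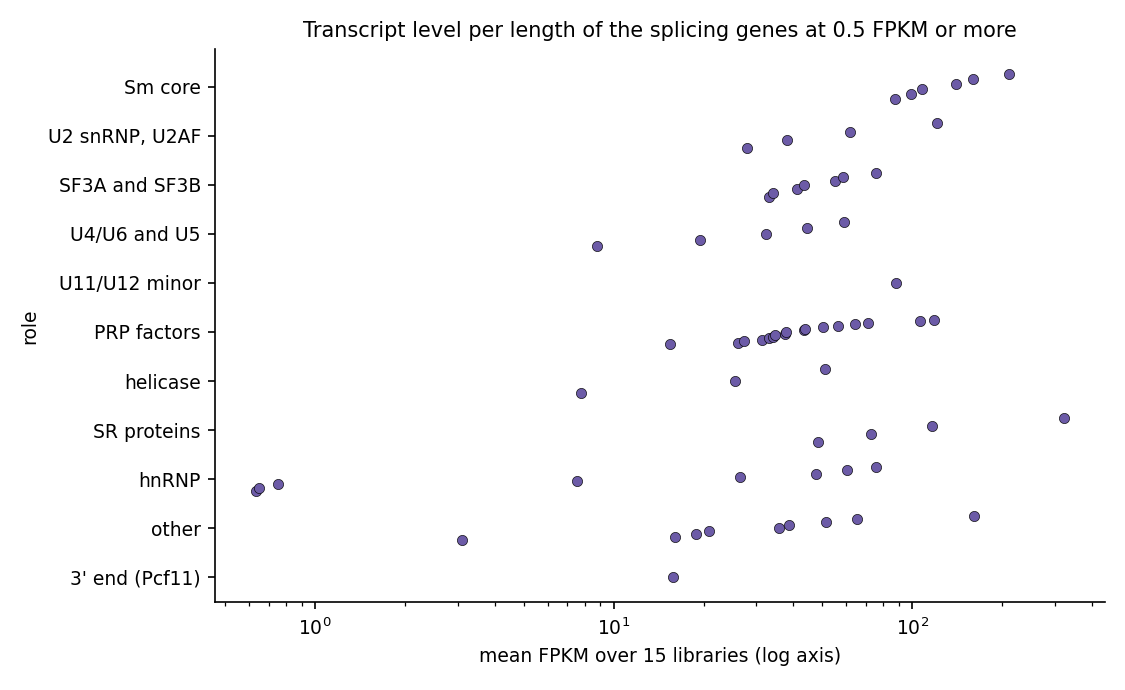
Mean FPKM over the 15 libraries (horizontal log axis) of the 65 splicing genes at 0.5 FPKM or more, with 1 point for each gene and genes grouped by role (vertical axis). The Sm core lies between 87.4 and 211 FPKM, with the 287-base entry of Sm D2 at its upper end. The highest point is SRSF4 with 323 FPKM.

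Most splicing genes had their highest mean on a diet without green alga and their lowest on one with it. The highest of the 5 diet means was on CY+EPA for 31 of the 65 tested genes, on CRY for 21, on CY for 8, on GA+EPA for 4 and on GA for 1. In that order these were 47.7%, 32.3%, 12.3%, 6.15% and 1.54%, against 18.2%, 23.9%, 13.9%, 18.7% and 25.3% of all genes tested. The lowest diet mean was on GA for 39 genes and on GA+EPA for 22, against 25.1% and 17.9% of all genes tested. Summed over all 70 genes, the 3 libraries had 5952, 5711 and 6049 CPM on CRY, 6455, 6425 and 6379 CPM on CY+EPA, 6245, 6119 and 6434 CPM on CY, 5744, 5480 and 5179 CPM on GA+EPA, and 5123, 5199 and 5030 CPM on GA. By this sum every library of CRY, CY+EPA and CY was above every GA library, and CRY overlapped GA+EPA through its replicate 1. As a share of the plain counts, without TMM, the 70 genes took 0.551 to 0.585% on CRY, 0.606 to 0.634% on CY+EPA, 0.566 to 0.623% on CY, 0.539 to 0.623% on GA+EPA and 0.538 to 0.556% on GA, so that CRY then overlapped GA.

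**Figure D2:**
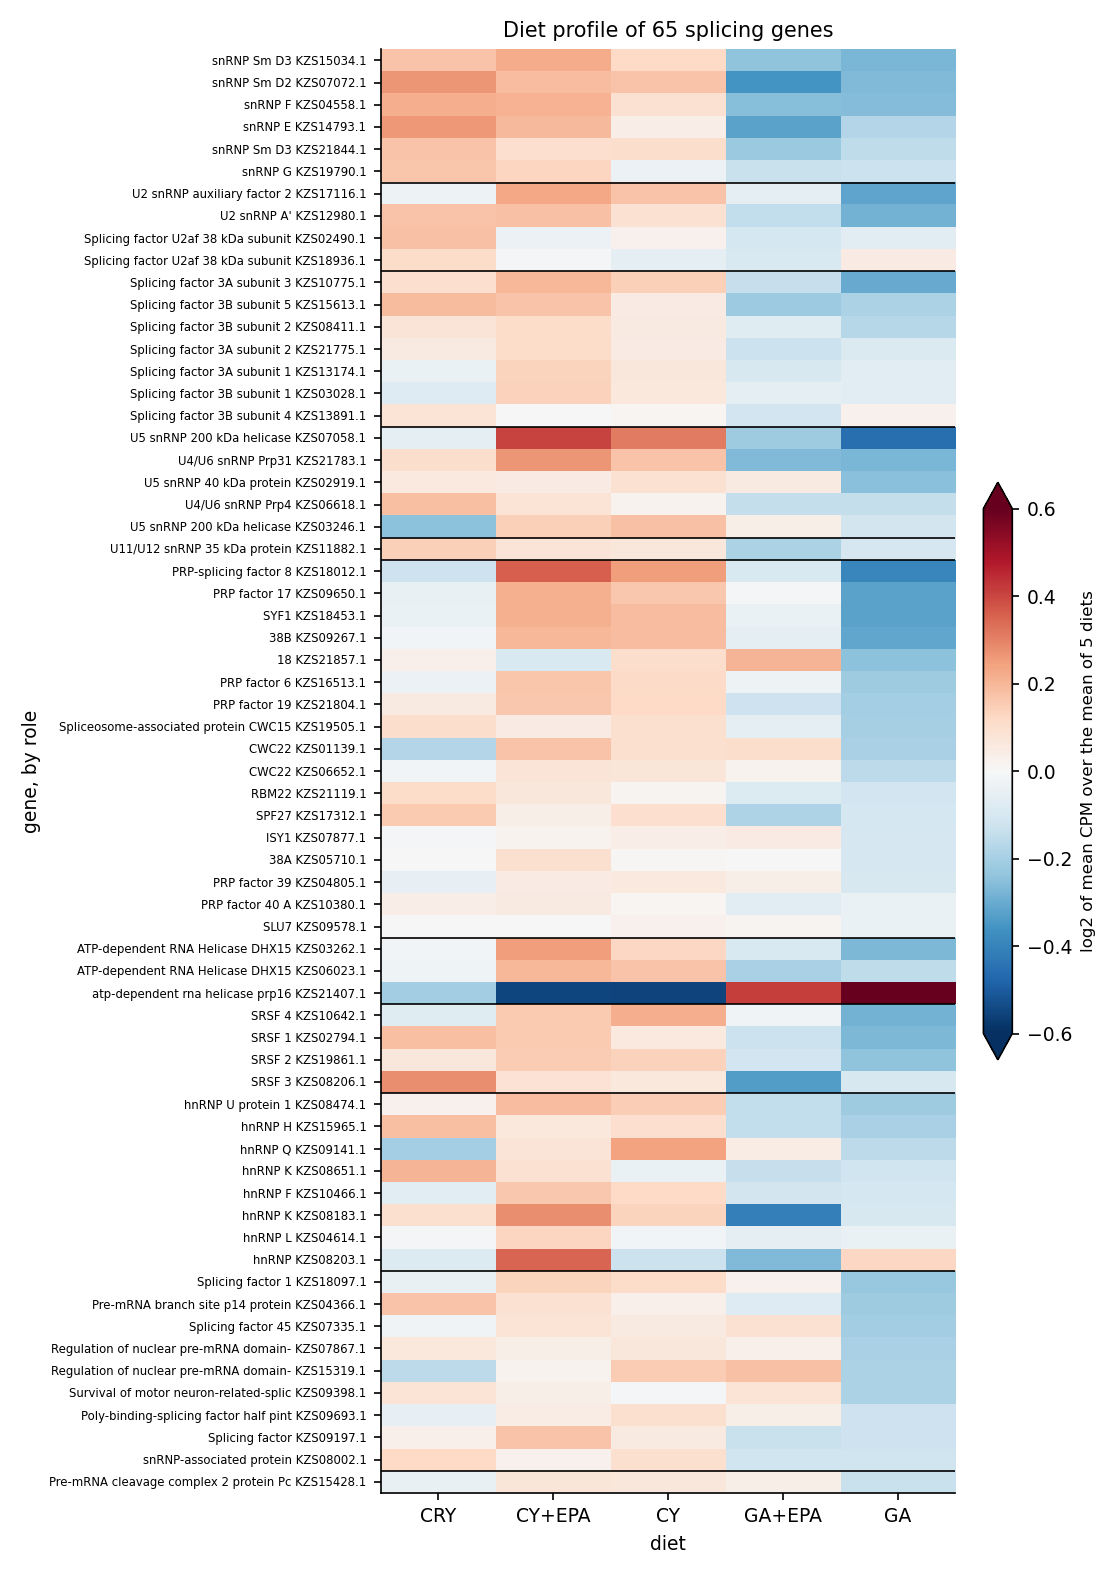
Mean CPM on each diet (columns) of the 65 tested splicing genes (rows, grouped by role and within a role ordered by their level on GA), as log2 minus the mean of the 5 log2 values. Colours are cut at 0.6 in either direction. Most rows are red on CRY, CY+EPA or CY and blue on GA+EPA or GA, and PRP16 is the reverse.

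The test for any difference among the 5 diets (edgeR quasi-likelihood F-test, Benjamini-Hochberg adjusted p of at most 0.01) called 15 of the 65 genes, 23.1%, where 8.12% of all genes tested were called. The lowest adjusted p were those of Prp31 (0.000240), of the U5 200 kDa helicase KZS07058.1 (0.000337) and of PRP8 (0.000691). Comparisons of 2 diets called 17 splicing genes in all, 11 of them among these 15. The other 4 of the 15, named here after their values were seen, were PRP8, DHX15 (KZS03262.1), PRP17 and hnRNP U protein 1. In 14 of the 65 genes the 9 CRY, CY+EPA and CY libraries all lay above the 6 GA+EPA and GA libraries, a pattern held by 3.04% of all genes. These 14, counted after the values were seen, included Sm D2, Sm E, Sm F, both Sm D3 entries, Prp4, Prp31, the U5 200 kDa helicase KZS07058.1, SF3A2, SF3A3 and hnRNP H. In 0 splicing genes were the 9 libraries all lower, against 2.01% of all genes. Without replicate 1 of GA+EPA 19 genes were higher in all 9 libraries and 1 lower, against 4.45% and 6.68% of all genes.

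CRY against GA asked how a natural food with EPA differs from the green alga without it, and in the fits of separate pairs it held most of the calls. Each pair had its own estimate of the spread between replicates. As a common biological coefficient of variation, this was lowest here, 0.136, against 0.199 in CY against GA. With all 15 libraries in 1 fit, CY against GA had more calls than CRY against GA, as given at the end. Of 65 genes, 17 were called, 16 higher and 1 lower on CRY, where 6.62% of all genes tested were called higher and 9.59% lower. An unadjusted edgeR p below 0.05 was given to 41 of 65 splicing genes, against 41.2% of all genes. The estimate was higher on CRY for 60 of the 65 genes, with a median log2 fold change of 0.24, against -0.0039 over all genes. All libraries of CRY lay above all of GA in 44 genes and below in 1 gene, where the shares over all genes were 21.4% and 24.7%. The count of calls depended on single libraries, with 5 without CRY replicate 1, 24 without CRY replicate 2, 11 without CRY replicate 3, and 8, 9 and 7 without replicate 1, 2 and 3 of GA.

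The Sm core held 4 of the 16 genes that rose. Sm F had 71.4, 77.5 and 78.8 CPM on CRY, against 54.7, 52.2 and 56.5 CPM on GA. Its groups did not overlap, and it rose by 0.48 on the log2 scale (SE 0.06, edgeR adjusted p = 0.000797). Sm D2 had 29.0, 24.7 and 30.1 CPM on CRY, against 20.7, 19.9 and 17.4 CPM on GA, and the largest log2 fold change of the risers, 0.53 (SE 0.10, edgeR adjusted p = 0.00651). The Sm D2 entry overlaps the gene of proteasome subunit alpha type-6 (KZS07071.1), on the opposite strand, by 270 bases of its annotated span (2709 to 3483), so its counts are uncertain if reads were not assigned by strand. Sm E had 79.1, 72.5 and 81.7 CPM on CRY, against 58.0, 58.4 and 56.3 CPM on GA, with a log2 fold change of 0.44 (SE 0.06). Of the Sm D3 entries, KZS15034.1 rose by 0.45 (SE 0.07, edgeR adjusted p = 0.00182), and KZS21844.1, at 0.33 (SE 0.07), missed the threshold with an adjusted p of 0.0115. Sm G, the remaining gene of the Sm core list, had 0.30 (SE 0.07), also short of the threshold. The libraries of CRY lay above those of GA in all 6 genes of this list. The list was drawn by name and leaves out the snRNP-associated protein KZS08002.1, which had means of 167 CPM on CRY and 142 CPM on GA.

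Of the 5 entries named as U4/U6 or U5 proteins, 4 rose on CRY. Prp31, which holds U4/U6 together with U5, had 51.7, 49.5 and 53.8 CPM on CRY and 38.3, 39.6 and 41.1 CPM on GA, a log2 fold change of 0.38 (SE 0.06, edgeR adjusted p = 0.00165). The other 3 were the U5 200 kDa helicase KZS07058.1 (0.40, SE 0.07), the U4/U6 protein Prp4 (0.33, SE 0.07) and the U5 40 kDa protein (0.31, SE 0.06). The proteins that define the branch site and the 3′ splice site gave 4 calls. These were the U2 snRNP protein A′ (0.46, SE 0.09), SF3A3 (0.40, SE 0.06), the branch site protein p14, which contacts the branch site within SF3B (0.39, SE 0.07), and the large subunit of U2AF, which binds the polypyrimidine tract (0.29, SE 0.06). No other of the 7 tested SF3 subunits was called. SF3B1, the subunit around which the branch helix is held, had 207, 213 and 197 CPM on CRY, against 214, 212 and 196 CPM on GA, and a log2 fold change of -0.01 (SE 0.06).

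Among the regulators of splice site choice, SRSF1 had the smallest adjusted p of the genes that rose (0.000409, edgeR). It had 81.4, 77.7 and 80.2 CPM on CRY, against 58.8, 57.5 and 59.0 CPM on GA, and a log2 fold change of 0.45 (SE 0.05). SRSF3 rose by 0.38 (SE 0.07), with 127, 125 and 114 CPM on CRY and 97.6, 94.1 and 90.5 CPM on GA. The other 2 SR proteins, SRSF2 (0.31, SE 0.07) and SRSF4 (0.21, SE 0.07), did not pass, although their libraries did not overlap either. Of 8 hnRNPs, hnRNP H (0.38, SE 0.06) and hnRNP K KZS08651.1 (0.32, SE 0.06) rose, and the other 6 had log2 fold changes of -0.19 to 0.24. None of the 17 PRP and other splicing factors was called, though the estimate was higher on CRY for all 17, with a median of 0.23.

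**Figure D3:**
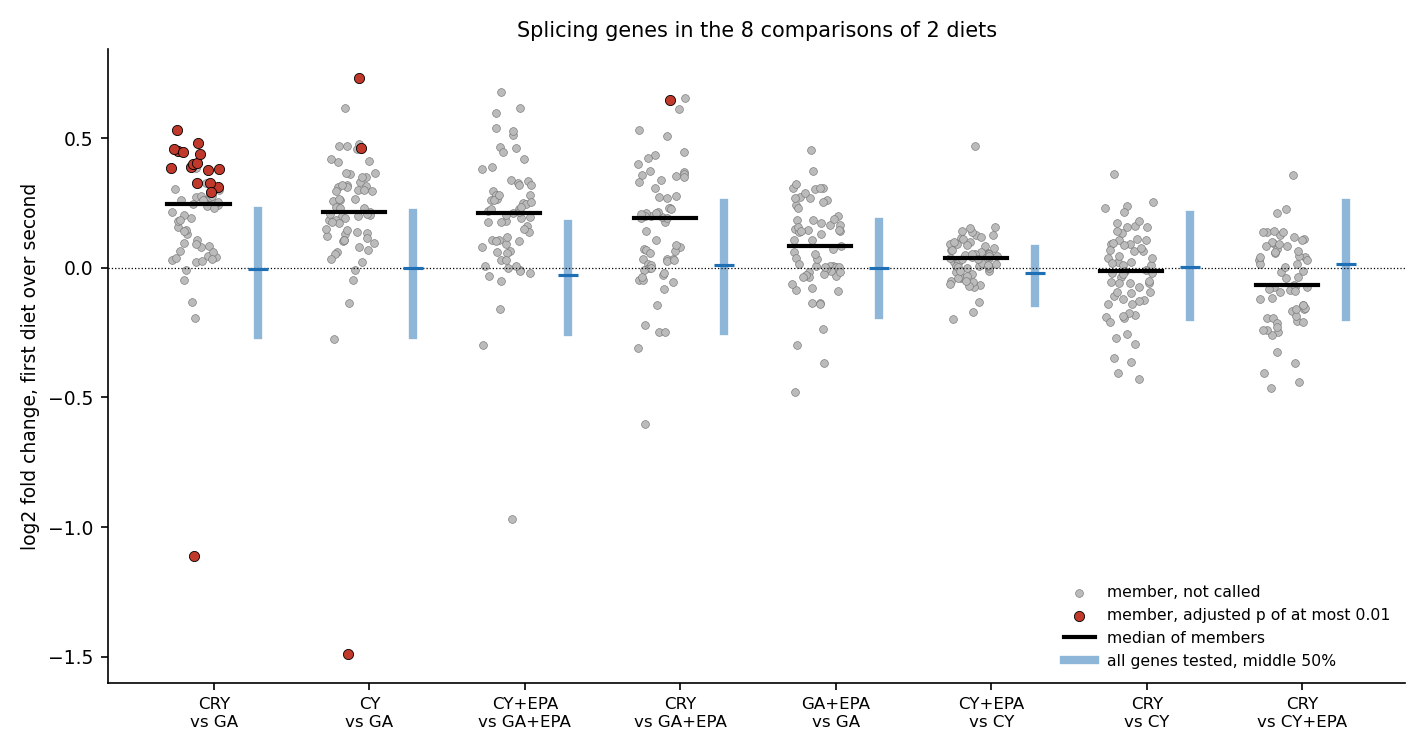
Log2 fold change (vertical axis, first diet over second) of the 65 tested splicing genes in the 8 comparisons of 2 diets, with called genes (adjusted p up to 0.01) in red, the median of the splicing genes as a black line, and the middle 50% and the median of all genes tested in blue. The medians are 0.24 for CRY and 0.21 for CY against GA, and PRP16 is the low red point in both.

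The 1 splicing gene that fell was the helicase PRP16 (KZS21407.1), which remodels the spliceosome after the first of the 2 catalytic steps. It lies on the minus strand of scaffold LRGB01000024.1 from base 1067388 to 1074561 in the authors' annotation of the *D. magna* v2.4 reference. Its 3 libraries had 42.3, 34.9 and 34.3 CPM on CRY, 29.3, 26.3 and 32.4 CPM on CY+EPA, 30.4, 25.3 and 31.9 CPM on CY, 35.3, 59.4 and 77.0 CPM on GA+EPA, and 80.2, 78.4 and 82.2 CPM on GA. The GA libraries were above all others, and the low GA+EPA value is that of replicate 1, the library that stood apart. PRP16 fell to 0.463 times its GA level on CRY, a log2 fold change of -1.11 (SE 0.08, edgeR adjusted p = 5.5e-05), and to 0.356 times on CY, -1.49 (SE 0.10, edgeR adjusted p = 0.000615). Both calls held under all 11 alternatives and in all 6 fits with 1 library left out, where the values were -1.21 to -1.06 and -1.53 to -1.39. Over the 15 libraries it had the largest coefficient of variation of the splicing genes at 5 CPM or more, 47.2%, against a median of 11.2%. In CY+EPA against GA+EPA the log2 fold change was -0.97 (SE 0.28, edgeR adjusted p = 0.134), and without replicate 1 of GA+EPA it was -1.25 (SE 0.15, adjusted p = 0.0265), neither called.

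CY against GA set the diets without EPA side by side, of which only CY had added alpha linolenic acid and cholesterol by the methods. It called 3 splicing genes, U5 200 kDa helicase KZS07058.1 and the U2AF large subunit higher and PRP16 lower, where 1.27% of all genes tested were called higher, 4.72% lower and 5.99% in either direction. An unadjusted edgeR p below 0.05 was given to 29 of 65 splicing genes, against 29.8% of all genes. The estimates again leaned to one side, with 60 of 65 higher on CY, a median of 0.21 against -0.0016 over all genes, and 43 genes with all CY libraries above all GA libraries, a pattern held by 17.5% of all genes. PRP16 alone had all CY libraries below those of GA, against 19.6% of all genes. The counts depend on single libraries. Without CY replicate 1 the comparison called 8 genes, and without CY replicate 3 or any 1 of the GA libraries it called PRP16 alone.

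The U5 200 kDa helicase, which unwinds U4 from U6 so that the catalytic RNA can form, had the largest rise on CY. KZS07058.1, on the plus strand of scaffold LRGB01002580.1 from base 1468946 to 1475675, had 209, 202 and 196 CPM on CRY, 281, 258 and 294 CPM on CY+EPA, 262, 223 and 294 CPM on CY, 190.0, 178 and 174 CPM on GA+EPA, and 156, 162 and 141 CPM on GA. Its CY libraries were all above those of CRY, GA+EPA and GA, and those of GA were below all others. It rose by 0.73 on CY over GA (SE 0.12, edgeR adjusted p = 0.00946), a call lost under 5 of 11 alternatives and in 4 of 6 fits with 1 library left out. The U2AF large subunit had 87.5, 96.6 and 99.8 CPM on CY, against 67.9, 67.2 and 66.8 CPM on GA, and rose by 0.46 (SE 0.08, edgeR adjusted p = 0.00936). That call held under only 5 of 11 alternatives and in 1 of 6 fits with 1 library left out. Its call in CRY against GA held under 4 of 11 and in 1 of 6. PRP8, the U5 protein that encloses the catalytic core, was likewise highest on the cyanobacterial diets and lowest on GA. It had 406, 379 and 383 CPM on CRY, 544, 534 and 554 CPM on CY+EPA, 480.0, 461 and 576 CPM on CY, 429, 399 and 368 CPM on GA+EPA, and 332, 338 and 299 CPM on GA. Its log2 fold change of 0.62 on CY over GA (SE 0.11) missed the threshold with an adjusted p of 0.0132.

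**Figure D4:**
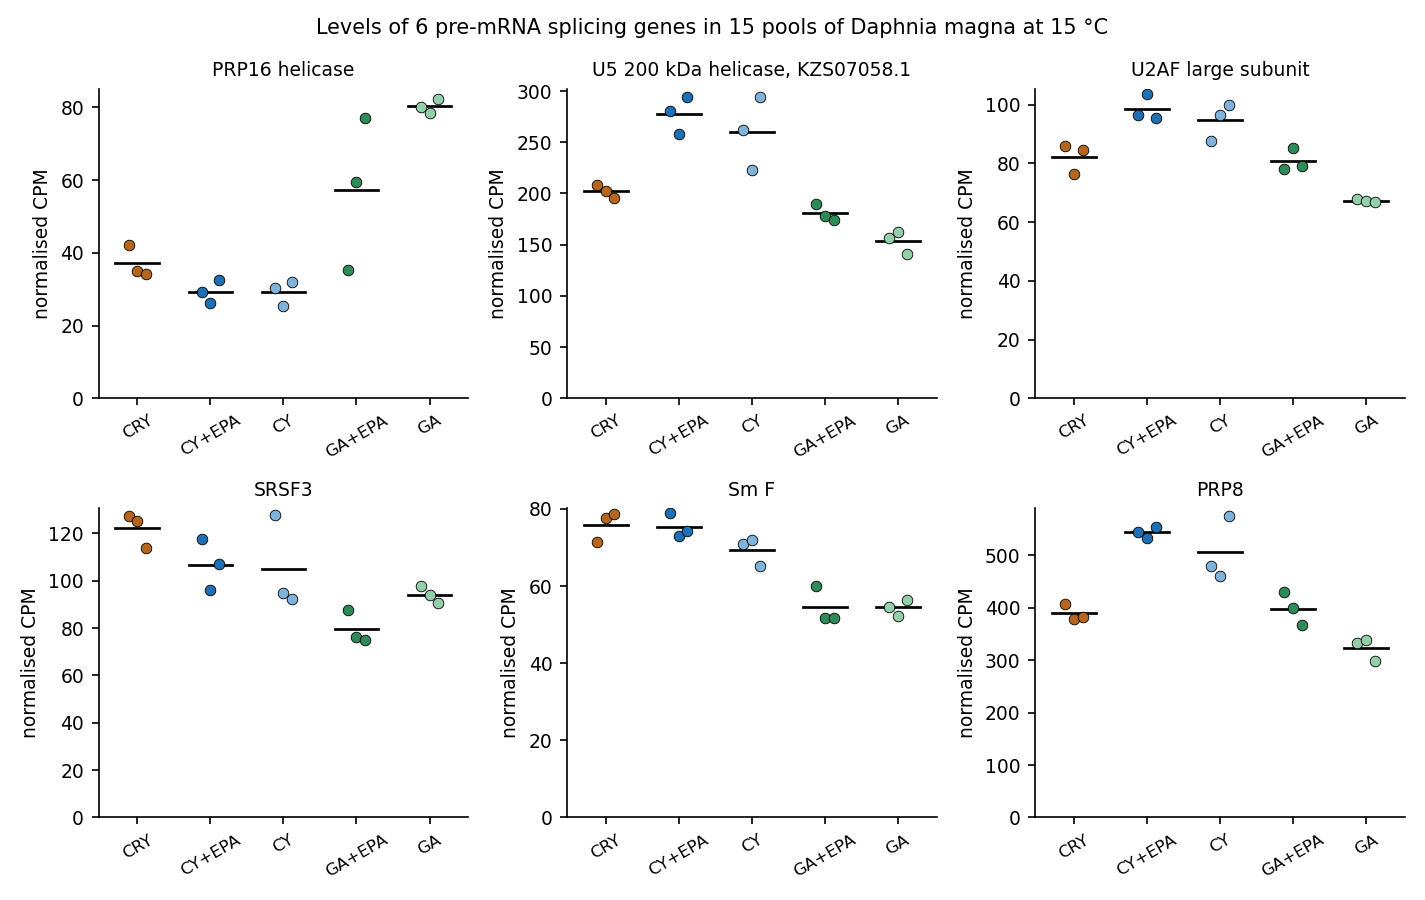
CPM (vertical axes, from 0) of 6 splicing genes in the 3 libraries of each diet (points) with the diet mean (line). PRP16 is highest on GA (78.4 to 82.2 CPM) and its GA+EPA libraries spread from 35.3 to 77.0 CPM, whereas the U5 200 kDa helicase and PRP8 are highest on CY+EPA and CY and lowest on GA.

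EPA on its own gave no call in edgeR for any gene, splicing or other. In CY+EPA against CY edgeR called 0 of 65 splicing genes and 0 of 14162 genes tested, and DESeq2 called 0 splicing genes and 0.0282% of all genes. An unadjusted edgeR p below 0.05 was given to 0 of 65 splicing genes, against 1.93% of all genes. All CY+EPA libraries lay above all CY libraries in 4 genes, against 3.53% of all genes. The log2 fold changes ran from -0.20 to 0.16 among genes at 5 CPM or more, with a median over all 65 of 0.04, and the median SE of a gene was 0.093. At the ends of that range were PRP18 (-0.20, SE 0.13), which acts in the second catalytic step, and Sm G (0.16, SE 0.09). In GA+EPA against GA edgeR called 0 splicing genes and 0 of 14353 genes tested, and DESeq2 called 0 splicing genes and 2.51% of all genes. The estimate was higher with EPA for 45 of 65 splicing genes, with a median of 0.09 against 0.0003 over all genes, and 19 (29.2%) were not overlapping higher and 4 (6.15%) lower, against 13.9% and 13.6% of all genes. An unadjusted edgeR p below 0.05 was given to 18 of 65 splicing genes, against 18.4% of all genes, and 16 of these (24.6% of 65) were higher with EPA, against 11.4% of all genes. The lowest adjusted p was 0.114, for the U5 40 kDa protein, which had 65.2, 64.9 and 59.0 CPM on GA+EPA, against 49.0, 51.5 and 52.7 CPM on GA. The largest estimate was that of PRP18, 0.45 (SE 0.11, edgeR adjusted p = 0.120), with 40.5, 33.8 and 32.0 CPM on GA+EPA and 24.7, 24.7 and 28.3 CPM on GA. The lowest was that of PRP16, -0.48 (SE 0.27, edgeR adjusted p = 0.379), which was -0.22 (SE 0.11) without replicate 1 of GA+EPA. Without that library 41 of 65 genes were higher with EPA, with a median of 0.06 against -0.01 over all genes, 19 were not overlapping higher and 8 lower, against 18.0% and 21.8% of all genes, and the U5 40 kDa protein and PRP18 had log2 fold changes of 0.29 (SE 0.07) and 0.36 (SE 0.09). Over all 6 fits with 1 library left out the median ran from 0.0404 to 0.1197. The test of whether the EPA difference itself differed between the basal foods called 0 splicing genes by edgeR or DESeq2, where edgeR called 0 of 14816 genes and DESeq2 0.297% of all genes, with 3 of 65 splicing genes below 0.05 before adjustment in edgeR, against 10.8% of all genes. PRP18 had the lowest adjusted p there, 0.309.

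The EPA-supplemented diets repeated the direction of the unsupplemented ones without passing the threshold. In CY+EPA against GA+EPA edgeR called 0 of 65 genes, where 0.147% of all genes tested were called (0.126% higher and 0.0210% lower), and DESeq2 called 6 (9.23%), against 3.56% of all genes. An unadjusted edgeR p below 0.05 was given to 31 of 65 splicing genes, against 20.8% of all genes. The estimate was higher on CY+EPA for 57 genes, with a median of 0.21 against -0.03 over all genes, and all CY+EPA libraries lay above all GA+EPA libraries in 39 genes, a pattern held by 15.1% of all genes. Prp31 came closest to a call, with 58.2, 57.1 and 57.8 CPM on CY+EPA and 38.1, 41.4 and 40.3 CPM on GA+EPA, a log2 fold change of 0.53 (SE 0.07, edgeR adjusted p = 0.0251). The U5 200 kDa helicase KZS07058.1 followed with 0.62 (SE 0.08, adjusted p = 0.0294). The Sm core was higher on CY+EPA in 6 of 6 genes with a median of 0.46. Without replicate 1 of GA+EPA 58 genes were higher, with a median of 0.20, 51 were not overlapping higher, against 24.5% of all genes, the Sm core had a median of 0.50, and Prp31 and KZS07058.1 had log2 fold changes of 0.46 (SE 0.07) and 0.62 (SE 0.09). CY+EPA against GA+EPA shares no library with CY against GA.

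CRY against GA+EPA set the natural EPA source beside the supplemented alga. It called SRSF3, where 0.972% of all genes were called higher, 0.594% lower and 1.57% in either direction. All CRY libraries lay above all GA+EPA libraries in 28 splicing genes and below them in 1, where the shares over all genes were 18.0% and 18.7%. SRSF3 had 127, 125 and 114 CPM on CRY, against 87.7, 76.2 and 75.1 CPM on GA+EPA, and its groups did not overlap. It rose by 0.65 on the log2 scale (SE 0.08, edgeR adjusted p = 0.00931), a call lost under 6 of 11 alternatives and in 5 of 6 fits with 1 library left out. Sm E (0.61, SE 0.08) and Sm F (0.51, SE 0.08) came next, with adjusted p of 0.0107 and 0.0158 by edgeR. Again the Sm core was higher in 6 of 6 genes, with a median of 0.48, whereas the PRP factors were higher in 10 of 17, with a median of 0.03. Without replicate 1 of GA+EPA the comparison called 4 genes, with SRSF3 (0.69), Sm E (0.65) and Sm F (0.55) higher and PRP16 (-0.88) lower on CRY, and the Sm core had a median of 0.51.

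Between CRY and the cyanobacterial diets the lowest adjusted p were those of U5 proteins, and none passed the threshold in edgeR. CRY against CY called 0 splicing genes by edgeR or DESeq2, where edgeR called 0 of 14164 genes and DESeq2 1.14% of all genes, with 6 of 65 splicing genes below 0.05 before adjustment in edgeR, against 15.6% of all genes. CRY against CY+EPA also called 0 by edgeR, where 0.162% of all genes were called (0.0423% lower), while DESeq2 called 2 (3.08%, against 5.62% of all genes), PRP8 and the U5 200 kDa helicase KZS07058.1, both lower. An unadjusted edgeR p below 0.05 was given to 12 of 65 splicing genes, against 27.4% of all genes, and 11 of these (16.9% of 65) were lower on CRY, against 13.2% of all genes. All CRY libraries lay below all CY+EPA libraries in 21 splicing genes (32.3%) and above them in 4 (6.15%), where the shares over all genes were 18.3% and 17.1%. There PRP8 had a log2 fold change of -0.46 (SE 0.07, edgeR adjusted p = 0.0185) and the U5 200 kDa helicase KZS07058.1 one of -0.44 (SE 0.08, adjusted p = 0.0323). The libraries of both genes did not overlap between CRY and CY+EPA. These comparisons share their CRY libraries with those against GA and GA+EPA.

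The U5 200 kDa helicase has a second entry, KZS03246.1, on the minus strand of scaffold LRGB01003325.1 from base 399191 to 406987. It had 56.4, 51.1 and 46.4 CPM on CRY, 69.6, 67.2 and 64.4 CPM on CY+EPA, 64.1, 65.1 and 77.1 CPM on CY, 68.8, 55.7 and 62.3 CPM on GA+EPA, and 60.7, 54.6 and 53.7 CPM on GA. Unlike KZS07058.1 it was lowest on CRY. Its log2 fold change was -0.13 (SE 0.08, edgeR adjusted p = 0.280) for CRY over GA and 0.26 (SE 0.10, adjusted p = 0.140) for CY over GA. The count of KZS07058.1 over that of KZS03246.1 was 3.96 ± 0.257 on CRY, 4.15 ± 0.381 on CY+EPA, 3.78 ± 0.336 on CY, 2.92 ± 0.238 on GA+EPA and 2.73 ± 0.218 on GA (SD, n = 3 each). The 9 libraries without green alga lay above the 6 with it. KZS03246.1 had an expected count that was not whole in 6 libraries, against 0 libraries for KZS07058.1, so the reads of KZS03246.1 that were divided in those libraries were not divided with KZS07058.1.

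How far splicing genes as a group stood above GA depended on the scaling of the libraries. A scaling factor shifts all genes of a library alike, so the distance of the splicing genes from the median of all genes stays nearly fixed by construction. With library totals alone, the median of all genes in CRY against GA was -0.16 and that of the splicing genes 0.09, with 42 of 65 higher on CRY and 4 called, SRSF1, Sm F and Sm E higher and PRP16 lower. With totals that leave out the 18 vitellogenin genes, an alternative added after the data were seen, the medians were -0.04 and 0.21, and 15 splicing genes were called. The median of the splicing genes minus that of all genes was 0.25 in CRY against GA. For CY against GA it was 0.21 to 0.22, for CY+EPA against GA+EPA 0.24, and for CRY against GA+EPA 0.17 to 0.18. By role, the Sm core kept 6 of 6 genes higher on CRY than on GA under library totals, with a median of 0.28, and the SR proteins 4 of 4, with 0.19. The signs of the SF3 subunits (-0.02), the hnRNPs (-0.03) and the helicases (-0.03) were turned, as were those of the PRP factors in CY+EPA against GA+EPA (-0.03). Among further turns were the PRP factors in CRY against GA+EPA (0.03 to -0.15) and the SF3 subunits in CY against GA (0.11 to -0.05). The genes that fell in none of the named roles also turned in CY+EPA against GA+EPA (0.01 to -0.14). So did the 1 gene listed for the 3′ end, Pcf11 (0.03 to -0.11). In CY against GA under library totals the Sm core had 5 of 6 genes higher and the SR proteins 3 of 4.

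**Figure D5:**
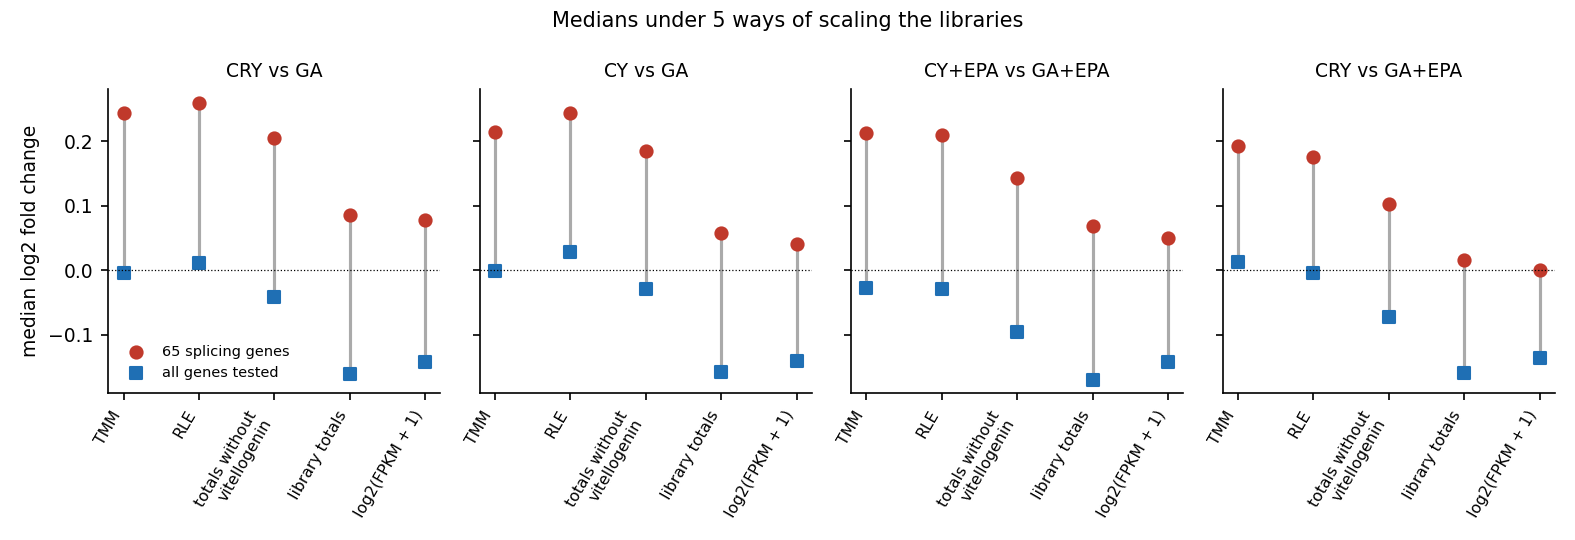
Median log2 fold change (vertical axis) of the 65 splicing genes (red circles) and of all genes tested (blue squares) under 5 ways of scaling the libraries, in 4 comparisons. In CRY against GA the medians under library totals are 0.09 and -0.16, against 0.24 and -0.0039 under TMM. A change of scaling shifts both medians alike.

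Genes of linked processes that fall outside the name rule (LSm ring, exon junction complex, snRNP assembly, cap binding and 3′ end formation, nuclear exosome, RNA polymerase II and further splicing proteins) leaned the same way. In CRY against GA 46 of the 60 tested were higher, with a median of 0.16, and 5 (8.33%) were called higher and 1 (1.67%) lower, near or below the 6.62% and 9.59% of all genes. In CY against GA 49 of 61 were higher, with a median of 0.18, and 1 (1.64%) was called higher, against 1.27% of all genes. That 1 was Crooked neck (KZS19813.1), a scaffold of the active spliceosome, with 110.2, 122 and 131 CPM on CY and 78.7, 82.5 and 81.0 CPM on GA. It rose by 0.56 on CY (SE 0.09, edgeR adjusted p = 0.00732) and by 0.40 on CRY (SE 0.06, adjusted p = 0.00217). The largest rise on CRY was that of an epithelial splicing regulatory protein (KZS03413.1), an RNA-binding regulator of exon choice in epithelia, with 268, 284 and 252 CPM on CRY, against 169, 169 and 156 CPM on GA. Its log2 fold change was 0.70 (SE 0.07, edgeR adjusted p = 0.000159). The others were Pleiotropic regulator 1 (0.40), mago nashi of the exon junction complex (0.36) and the polymerase subunit RPB3 (0.29), which rose, and the tRNA ligase RtcB (-0.27), which fell. Of 71 cytosolic ribosomal proteins, 29 were higher on CRY and 5 on CY than on GA, with 0 called by edgeR in either, and their medians were -0.01 and -0.17. Against GA+EPA, however, the ribosomal proteins leaned upward as the splicing genes did. On CY+EPA 62 of 71 (87.3%) were higher than on GA+EPA, against 87.7% of splicing genes. On CRY 69 of 71 (97.2%) were higher than on GA+EPA, against 75.4% of splicing genes. The 110 genes of DNA replication and cell division leaned like the splicing genes on CY. There 71 were higher than on GA, with a median of 0.12. Of the 110, 36 (32.7%) were not overlapping higher and 8 (7.27%) lower, against 17.5% and 19.6% of all genes. On CY 2 (1.82%) were called higher and 1 (0.909%) lower, against 1.27% and 4.72% of all genes. On CRY 65 were higher than on GA, with a median of 0.03. Of the 110, 11 were called higher on CRY and 7 (6.36%) lower, against 6.62% and 9.59% of all genes. Not overlapping on CRY were 35 (31.8%) higher and 22 lower, against 21.4% and 24.7% of all genes. On CY+EPA 57 of 110 (51.8%) were higher than on GA+EPA, against 46.4% of all genes and 87.7% of splicing genes. On CRY 54 of 110 (49.1%) were higher than on GA+EPA, against 51.3% of all genes.

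The spread between replicates of splicing genes was small. The median coefficient of variation within a diet was 6.76% for the 62 splicing genes at 5 CPM or more, 9.87% for the 8851 genes in the same range of CPM and 6.02% for ribosomal proteins. The ratio of the highest to the lowest diet mean had a median of 1.28, against 1.29 for genes in the same range of CPM. Among splicing genes it reached 2.75, for PRP16. The steadiest gene was SLU7, which sets the 3′ splice site in the second step, with a coefficient of variation of 3.07% over the 15 libraries. None of the 9948 genes at 5 CPM or more had a smaller one. In their genome positions the genes were scattered, on 58 scaffolds, of which 9 held more than 1 of them.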

How the data were processed

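RNA was sequenced from 15 pools of whole mothers at 15 °C. The authors trimmed reads with Trimmomatic, aligned by Bowtie2 (*D. magna* reference v2.4) and deposited expected counts and FPKM per gene from RSEM 1.2.31. Expected counts were rounded and tested in edgeR 4.0.16 (R 4.3.3) by the quasi-likelihood test after filterByExpr and TMM scaling. Each comparison was fitted on its own libraries, the EPA interaction on 12 and the test over 5 diets on 15. Adjusted p (Benjamini-Hochberg) covers all genes tested, and genes at 0.01 or less were called. Fold changes are the first diet over the second, and SE is the log2 fold change over the root of F. FPKM was used for levels between genes and, with limma 3.58.1 on log2(FPKM + 1) and log2(FPKM + 0.1), as an alternative. Other alternatives were RLE factors, library totals with and without vitellogenin genes, DESeq2 1.42.0, no filter, at least 10 counts in every library, 1 fit of all libraries, a replicate block, a threshold of 0.05 and leaving out each library. Counting intervals and floors cover counting error only. Genes named in the text were those called (the 8 highest and 8 lowest where over 15 were), the 2 highest and 2 lowest non-overlapping ones per comparison at 5 CPM or more, the 3 highest FPKM per role and the 3 smallest and 3 largest coefficients of variation. Any other gene named was picked with its values in view. The genes and lists were chosen with earlier results of these data known. None of the 70 genes matched the RefSeq gene table.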

Additional observations from a re-analysis of the deposited data

How the results depend on the processing

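The 21 calls of splicing genes between 2 diets kept their sign in all 357 pairs of a call and an alternative setting. The threshold of 0.05 uses the main fit, so no sign could change and no call could be lost there. The linked genes outside the name rule were fitted in the main setting alone. Medians near 0 changed sign in CRY against CY (-0.0136 in the main fit, 0.0017 with library totals, 0.0054 without CRY replicate 2). They also changed sign in the EPA interaction (0.0157 without CY+EPA replicate 2, 0.0167 without CY replicate 1), as did medians of some role groups under library totals, given above. In CRY against GA the count of splicing genes called was 4 with library totals, 28 with DESeq2, 8 with all 15 libraries in 1 fit, 37 at a threshold of 0.05 and 2 with limma on FPKM at either pseudocount, and the median was 0.0863 with totals and 0.0785 and 0.0793 with limma. In CY against GA the count was 1 with totals, with totals without vitellogenin, with the replicate block and with limma at either pseudocount, 15 with DESeq2, 13 with all libraries and 15 at 0.05, and the median was 0.0576 with totals and 0.0411 and 0.0524 with limma. In CY+EPA against GA+EPA the count was 6 with DESeq2, 4 with all libraries and 2 at 0.05, and the median was 0.0686 with totals, 0.1426 without vitellogenin and 0.0507 and 0.0514 with limma. In CRY against GA+EPA the count was 0 with RLE, with either kind of totals, with the replicate block and with limma, 9 with DESeq2, 7 with all libraries and 12 at 0.05, and the median was 0.0165 with totals, 0.1022 without vitellogenin and 0.0005 with limma. CRY against CY+EPA had 2 calls with DESeq2 and 3 at 0.05. The test over 5 diets called 4 with totals, 8 without vitellogenin, 31 with DESeq2, 32 at 0.05 and 4 with limma. By DESeq2 43.1% of splicing genes and 20.6% of all genes were called in CRY against GA. In CY against GA the shares were 23.1% and 12.6%, in CY+EPA against GA+EPA 9.23% and 3.56%. In CRY against GA+EPA they were 13.8% and 9.73%, and over 5 diets 47.7% and 24.1%. For the other alternatives and the fits with 1 library left out, shares over all genes are not given here. Those counts therefore do not set splicing genes apart from the whole fit. The cause of the shifts between alternatives was not tested. Leaving out 1 library gave 5 to 24 calls in CRY against GA (5 without CRY replicate 1, 24 without CRY replicate 2), 1 to 8 in CY against GA, 0 to 4 in CRY against GA+EPA and 7 to 19 over 5 diets. The medians then ran from 0.2178 to 0.2865, 0.2142 to 0.243 and 0.0938 to 0.1987 in the first 3 of these, from 0.175 to 0.2275 in CY+EPA against GA+EPA and from -0.0775 to -0.002 in CRY against CY+EPA, and the medians minus that of all genes from 0.1058 to 0.1949 in CRY against GA+EPA and from -0.0938 to -0.0033 in CRY against CY+EPA. The replicate numbers did not pair the libraries, and with the replicate block the count was 13 in CRY against GA and 12 over 5 diets. With 3 pools per diet, differences of a size near the SE of a gene could not be told from none.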
